A study of Mus musculus with 248 samples.

Results

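Cluster A was 1 of 5 groups, A to E, into which the study's authors divided single hematopoietic stem cells (HSCs) of the mouse. It is described here by the 854 genes that the authors' deposited table lists as higher in cluster A than in all other cells, of 3336 entries for the 5 clusters together and 2887 distinct genes. Its enrichment terms and its pairwise pathway scores were read beside that list. The cells had been clustered on these same measurements, so the fold changes, detection shares and p-values of the list are the values that define the cluster. They are given as a description and stand for no test.

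HSCs renew themselves and form all blood lineages, and most of them rest outside the cell cycle. In resting HSCs mitochondria tend to be less active, and lysosomes, the acidic organelles that break down proteins, lipids and worn-out organelles, have been tied to keeping the resting state. The vacuolar ATPase pumps protons into lysosomes, and cathepsins and other hydrolases work in the acid it makes.

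Cells came from C57Bl6 mice and were sorted as Lin-Sca1+cKit+CD150+CD48-, a surface profile of long-term HSCs, into an MMP-low and an MMP-high gate by mitochondrial membrane potential, the voltage across the inner mitochondrial membrane. Each library held 1 cell captured on a Fluidigm C1 chip, with 122 MMP-low and 126 MMP-high libraries. The series text states that 224 cells entered the analysis, and no label gives the sex, age or number of the mice or the cluster of a cell. With no animal or sort named, each group counted as 1 sample, so no difference below has a replicate check. Total reads per library ranged from 678723 to 5074155 (median 1723863). Genes detected per library had a median of 2317 (514 to 3674) in MMP-low and 3796 (1130 to 5200) in MMP-high, and the part of this gap in the detection shares below was not tested.

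The 854 genes of cluster A made up 5.27% of the 16203 genes tested, and 656 of them, 4.05% of all genes tested, passed at an adjusted p under 0.05 by the authors' deposited table. A further 90 had an adjusted p of 1. Most differences were small: the log fold, in a base that is not stated, had a median of 0.33 and ran from 0.25, the lowest value listed, to 1.35. It lay under 0.3 for 283 genes, between 0.3 and 0.5 for 467, between 0.5 and 0.75 for 86 and above that for 18. The members just inside the limit of 0.25 were Cd37, Bub1b and Fam168a, each at 0.25, and genes below it are not listed.

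Detection, the share of cells in which a gene was found, set the list apart more visibly than the fold did. Every cell of cluster A had a detected level of 430 of the 854 genes (50.4%) in the authors' deposited table. The median gene was found in 100% of cluster A cells and in 70.9% of other cells. What level counted as detected, and whether zeros had been filled in first, is not stated. These shares stand beside a median of 2317 genes detected per MMP-low library, of 16203 tested. That median covers all 122 MMP-low libraries, whereas 224 cells of the 248 libraries entered the authors' analysis. Detection was higher in cluster A for 777 genes, equal for 66 and lower for 11. It was at least 50 percentage points higher for 169 genes and at least 80 points higher for 25. The other clusters differed in this respect: the share of listed genes found in every cell was 35.5% for B, 26.7% for C, 46.4% for D and 84.4% for E.

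**Figure D1:**
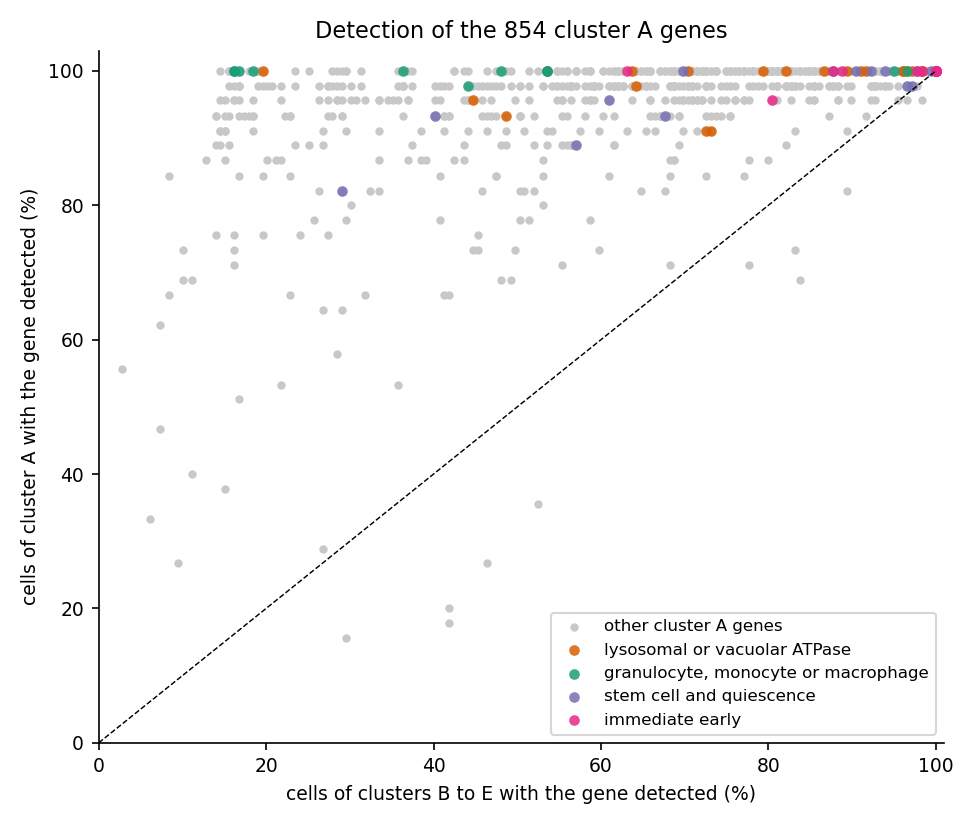
Each point is 1 of the 854 cluster A genes. The vertical axis gives the share of cluster A cells, and the horizontal axis the share of all other cells, in which the gene was detected, both in percent; the dashed line marks equal shares, colours mark 4 gene lists, and where lists overlap the last one drawn covers the others. Most points lie along the top edge, since 430 genes were found in all cluster A cells, and the granulocyte, monocyte and macrophage markers (green) reach far to the left, down to 16.2% of other cells.

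Leading the list was Mgst1 (chromosome 6, 138140316 to 138156755, mm10), a membrane-bound glutathione transferase that protects against oxidised lipids. It was found in 100% of cluster A cells and 92.2% of other cells, with a log fold of 1.35 and an adjusted p of 6.68e-08 by the authors' deposited table. Cpne8 (chromosome 15, 90487482 to 90679432), a copine that binds membranes in response to calcium, was found in 100% of cluster A cells and 77.1% of other cells, with a log fold of 1.0 and an adjusted p of 1.53e-14 in the same deposited table.

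Psap (chromosome 10, 60277627 to 60302597) encodes prosaposin, the precursor of the saposins that help lysosomal enzymes reach their lipids. Its log fold of 0.94 in the authors' deposited table was large, yet its adjusted p was 0.716, and it was found in 91.1% of cluster A cells and 73.2% of other cells. Chil3 (chromosome 3, 106147554 to 106167564), a chitinase-like secreted protein of myeloid cells, was found in 100% of cluster A cells and 53.6% of other cells, with a log fold of 0.80 and an adjusted p of 2.49e-17 by the authors' deposited table. Chil3 was also listed for cluster C, at a log fold of 0.46.

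Zfp975 (chromosome 7, 42660105 to 42692742), a zinc finger gene, was found in 100% of cluster A cells and 55.3% of other cells, with a log fold of 0.77 and an adjusted p of 1.74e-21 by the authors' deposited table. Optn encodes optineurin, a receptor that brings damaged mitochondria and bacteria to autophagosomes. It was found in 93.3% of cluster A cells and 17.3% of other cells, although its log fold was only 0.31 (adjusted p 6.76e-19, authors' deposited table). Both genes were listed for cluster B as well, Zfp975 at a log fold of 0.42 and Optn at 0.50. They were found in 100% and 89.3% of B cells.

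Next by fold came genes of several roles. Ctsc, the cathepsin that activates granule proteases, and Lyst, which governs the size of lysosomes and granules, each had a log fold of 0.77 and were found in 100% of cluster A cells, against 70.4% and 58.1% of other cells in the authors' deposited table. Mtmr14, a lipid phosphatase, had a log fold of 0.77 as well, with detection in 88.9% of cluster A cells and 55.3% of other cells. The tetraspanin Tspan14 had 0.76 and Ctse, an aspartic protease of endosomes, had 0.69, with detection in 100% of cluster A cells for both and in 79.3% and 63.7% of other cells. Ctsc (log fold 0.56), Lyst (0.82), Tspan14 (0.37) and Ctse (1.39) were listed for cluster B too.

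Ppp1r13b, a partner of p53, had a log fold of 0.73 in the authors' deposited table, Aida 0.72, Aplp2, a relative of the amyloid precursor, 0.71, Pttg1ip 0.71, the serine protease inhibitor Serpina3g 0.71, the interferon-induced membrane protein Ifitm1 0.69 and the nuclear receptor Nr4a1 0.69. Aplp2, Pttg1ip, Serpina3g, Ifitm1 and Nr4a1 were each found in at least 95% of other cells. Retnlg, a secreted protein of neutrophils, had a log fold of 0.68 and stood apart in presence, with 100% of cluster A cells and 16.8% of other cells (adjusted p 7.51e-31). Cluster B listed Retnlg too, at a log fold of 1.36 and in 100% of B cells. Tmem128 (0.67) and Adamtsl5 (0.66) closed the leading 20; the adjusted p of these 20 genes was under 0.05 for all except Psap.

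**Figure D2:**
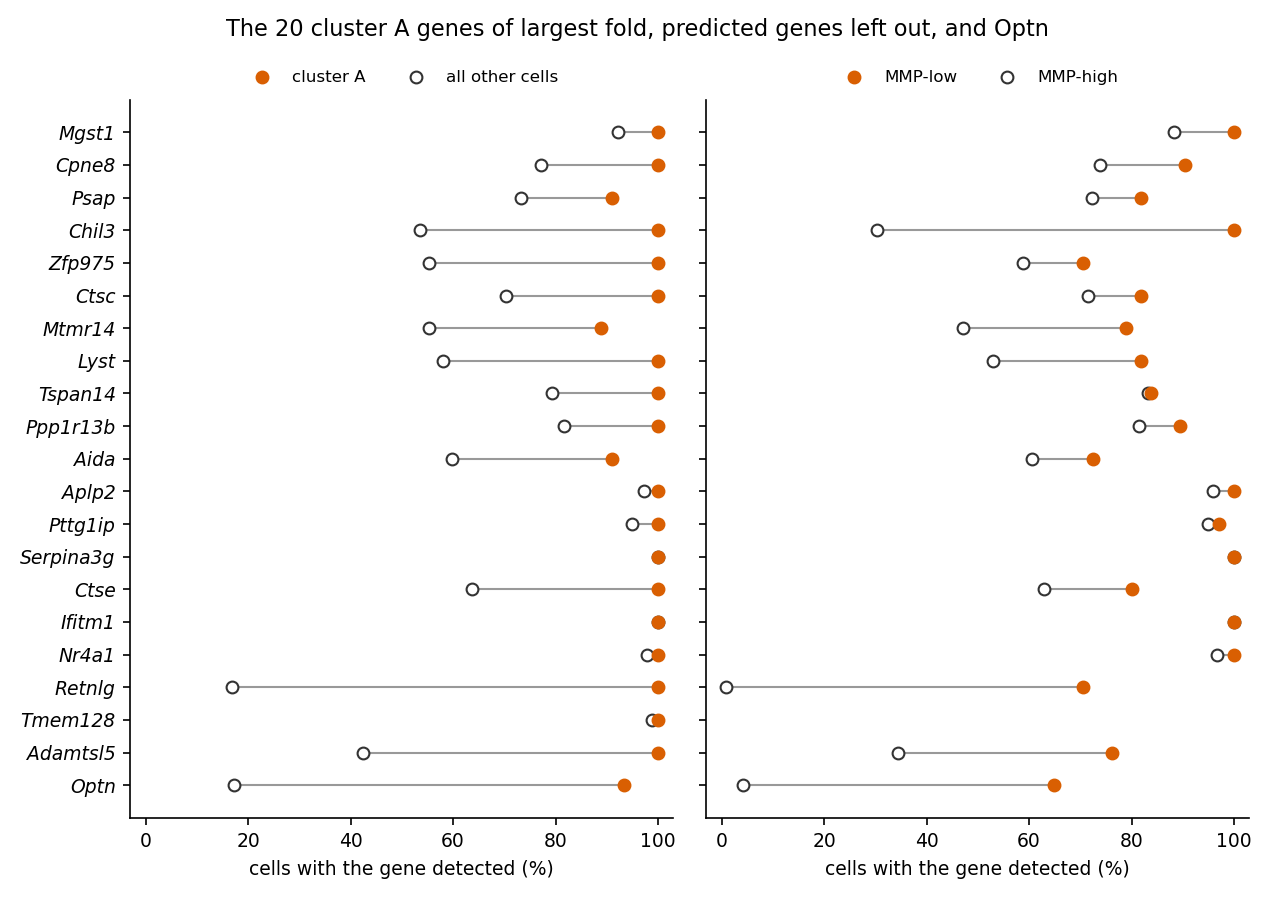
The share of cells with each gene detected (percent) is shown for the 20 cluster A genes of largest fold, predicted genes left out, and for Optn. The left panel sets cluster A (filled) against all other cells (open) and the right panel MMP-low (filled) against MMP-high cells (open); filled points hide open ones at the same value, and Tmem128 was not listed in the MMP comparison. On the left Retnlg and Optn, both also listed for cluster B, show the widest gaps, 100% against 16.8% and 93.3% against 17.3%. On the right the gaps of Chil3 (100% against 30.3%) and Retnlg (70.5% against 0.8%) are the widest.

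In detection the 5 widest differences belonged to Camsap2, Zfp781, Tesk2, P2ry6 and Pld4, each found in 100% of cluster A cells. Camsap2, which caps the minus ends of microtubules, was found in 14.5% of other cells, and the zinc finger gene Zfp781, the kinase Tesk2, the nucleotide receptor P2ry6 and the endolysosomal nuclease Pld4 in 15.6% each, in the authors' deposited table. The genes found least often outside cluster A were Mical1, an actin-oxidising enzyme, in 55.6% of cluster A cells and 2.8% of other cells, and Gtf2ird2, in 33.3% and 6.1%. Dram1, a lysosomal membrane protein that promotes autophagy, was found in 62.2% of cluster A cells and 7.3% of other cells. The chemokine gene Cxcl2 was found in 46.7% of cluster A cells and 7.3% of other cells, and the interferon-induced Ifit3 in 84.4% and 8.4%. Of these 10 genes all but Gtf2ird2 (adjusted p 0.155) passed at an adjusted p under 0.05 by the authors' deposited table. Ifit3 has a close copy, Ifit3b, also listed for cluster A, and reads of such pairs can be split between them.

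On which side of the MMP comparison the cluster fell was read from the authors' deposited table of MMP-low against MMP-high cells, which shares its cells with the cluster table. Of all genes tested, that table puts 5.86% on the MMP-low side, 3.33% at an adjusted p under 0.05, and 5.67% on the MMP-high side. Of the 854 cluster A genes, 556 (65.1%) fell on the MMP-low side, 0 on the MMP-high side and 298 on neither. For the other lists the MMP-low and MMP-high shares were 60.4% and 0% for B, 7.23% and 14.6% for C, 0% and 53.2% for D, and 0.22% and 49.1% for E. Both tables had an adjusted p under 0.05 for 323 of the 556 genes.

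A set of 7 genes bore on the label directly and were chosen after their values were seen. Lgals3, Fgr, Pld4, P2ry6, Ighm, Tesk2 and Mmp8 were each found in 100% of cluster A cells and in 0% of MMP-high cells, by the authors' deposited table of each comparison. If both tables used the same cells and the same rule for detection, which neither states, no MMP-high cell belonged to cluster A. Lgals3, Ighm and Mmp8 were also found in 100% of cluster B cells. On the same condition no MMP-high cell belonged to cluster B either, so this was not particular to A. The same 7 genes were found in 69.5% to 70.5% of MMP-low cells and in 15.6% to 16.2% of cells outside cluster A. A further 12 cluster A genes, 19 in all, were likewise found in 0% of MMP-high cells. Over the whole MMP comparison 39 listed genes were found in 0% of MMP-high cells, so the trait was not limited to cluster A genes.

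Cluster sizes were not read from any label, but the detection shares of genes listed in several tables fix them. A gene's share over all cells is the same whichever cluster it is computed from, and 2098 such equations were solved together by least squares, a step added after the tables had been seen. Cluster A then held 20.1% of the cells, B 12.5%, C 30.4%, D 22.8% and E 14.3%, a total of 100.0%, and MMP-low cells made up 46.9%. The equations were met with a median residual of 0.0211 and a largest residual of 0.0875 percentage points, so the tables fit 1 set of cells and 1 rule of detection. With no MMP-high cell in it, cluster A would be 42.8% of the MMP-low cells. The 7 genes above would then be found in 46.6% to 48.4% of the MMP-low cells outside cluster A. Those cells would include all of cluster B if B too held no MMP-high cell.

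Lgals3, Pld4, P2ry6, Ighm and Mmp8, 5 of those 7 genes, were listed for cluster B as well. Clusters A and B shared 272 listed genes, 31.9% of the A list and 40.4% of the B list, while A shared 40 genes with C (4.68% of A, 4.82% of C), 1 with D and 2 with E. These lists are set against overlapping sets of cells, so the shares are a description. In all, 541 cluster A genes were listed for no other cluster. Of the 272 genes, 83 had the larger log fold in A and 189 the larger in B. Thoc3 was listed for A, D and E and Zfp410 for A and E.

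For the genes listed by both A and B, detection in the cells of C, D and E together follows from the cluster sizes above. The median gene was found in 100% of A cells, in 96.4% of B cells and, by this computation, in 50.6% of C, D and E cells. For 14 of the 272 genes the computed share in C, D and E was under 2%. Lgals3, Ighm, Mmp8 and Retnlg were found in 100% of both A and B cells in the authors' deposited table, with computed shares of 0.7%, 0.7%, 0.7% and 1.4% in C, D and E. P2ry6 and Pld4 were found in 100% of A cells and 96.4% of B cells, with 0.6% computed in C, D and E. Ptgs2, the inducible prostaglandin synthase, was found in 86.7% of A cells and 89.3% of B cells, with 1.3% computed for the rest. Of the 25 cluster A genes with a gap of at least 80 percentage points, 17 were also listed for B and all 25 fell on the MMP-low side.

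**Figure D3:**
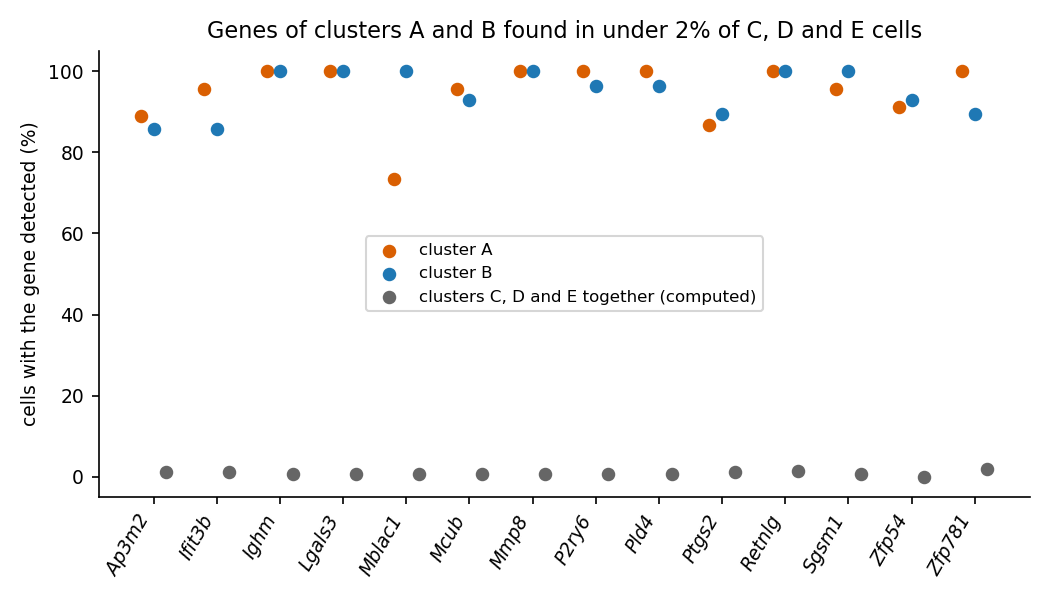
The vertical axis gives the share of cells with the gene detected (percent) for the 14 genes listed by both clusters A and B with a computed share under 2% in C, D and E. Shares for A and B are the authors' values, and those for C, D and E together were computed from them and from the cluster sizes. All 14 genes lie above 70% in A and above 80% in B, and Mblac1 is the lowest in A at 73.3%.

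Of 74 genes for lysosomal enzymes and lysosomal membrane proteins, 15 (20.3%) were listed for cluster A. Of these 12 passed at an adjusted p under 0.05 by the authors' deposited table, beside 16 listed for B with 7 that passed, 4 listed for C, 5 for D and 4 for E. Over all genes tested the listed shares were 4.16% for B, 5.12% for C, 3.23% for D and 2.8% for E, beside 5.27% for A. Their median log fold was 0.45, against 0.33 over all cluster A genes. How many genes of each list the authors tested is not known, since only genes past their limits are listed. After Psap, Ctsc and Ctse came Tpp1, a peptidase lost in a childhood neuronal storage disease, at a log fold of 0.48 and with detection in 100% of A cells and 79.3% of other cells, and cathepsin Z (Ctsz) at 0.46 with 100% and 91.1%. Galns, which removes sulphate from keratan sulphate, was found in 100% of A cells and 19.6% of other cells (log fold 0.46, adjusted p 1.75e-23, authors' deposited table). Of the 15 genes 9 were listed for B too, Galns at a log fold of 0.52 and in 100% of B cells. Ctsa, Asah1, Lamp1, Scpep1, Ctsh, Ctss and Arsb also had an adjusted p under 0.05, and the listed Psap, Ctso and Ctsb did not.

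The vacuolar ATPase was listed more fully for cluster A than for any other cluster, a difference that was not tested. Of its 17 genes, 7 were listed for A (41.2%, beside 5.27% over all genes tested), 2 for B and 0 for C, D and E. An adjusted p under 0.05 held for 5 of the 7 by the authors' deposited table. Atp6v1c1, a subunit that helps join the catalytic and the membrane parts of the pump, led with a log fold of 0.55 and detection in 100% of A cells and 91.6% of other cells. The accessory subunits Atp6ap1 (0.45) and Atp6ap2 (0.42) and the membrane-part subunit Atp6v0d1 (0.43) followed, each found in 100% of A cells and in 82.1%, 96.1% and 98.3% of other cells. Atp6v1h (0.32) also passed, and Atp6v1b2 (0.32, adjusted p 0.167) and Tcirg1 (0.26, adjusted p 1) did not. The 7 subunits were found in 72.6% to 98.3% of other cells.

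Many lysosomal genes carry upstream of their start a site for TFEB, the regulator of lysosome formation, and its palindrome TCACGTGA was therefore looked for on both strands in the 250 bases before each gene's start in RefSeq (GRCm38.p6), a search added after the values were seen. It occurred in 1 of 14 lysosomal and vacuolar ATPase genes of cluster A with a promoter in the table, against 7 of 55 genes of the same lists not listed for A. It occurred in 14 of 643 cluster A genes (2.18%) and in 0.907% of all 27025 genes. The 27025 genes were not limited to the 16203 that the authors tested, and the meaning of the difference was not tested. The 1 lysosomal member was Ctsa, shown because it carries the palindrome (capitals) near the start of a member of the list; the stretch ends at the last base before the RefSeq start, at chr2:164833744-164833772, plus strand. GENCODE M21 places the start of Ctsa upstream, at 164832873, so that by this annotation the stretch lies inside the gene.
Ctsa: aacaatgagcaaactgTCACGTGAtgcag

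Of the endosome and vesicle genes, 7 were listed for A, a share of the list (5.88%) near the 5.27% over all genes tested, and 6 passed at an adjusted p under 0.05 by the authors' deposited table, beside 4, 11, 7 and 6 listed for B, C, D and E. Rab8a, a small GTPase of exocytosis, had a log fold of 0.56, the fusion protein Vamp3 0.54 and Vps4a, the ATPase that takes ESCRT filaments apart, 0.51. Snx6 (0.40) and Vps35 (0.33), both parts of retrieval from endosomes, also passed. Of 21 copines, annexins and related calcium-dependent membrane binders, Cpne8, Anxa2 (0.48) and Anxa6 (0.30, adjusted p 0.238) were listed.

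Of 59 autophagy and mitophagy genes, 6 were listed for A (10.2%, beside 5.27% over all genes tested), against 3, 3, 4 and 3 for B, C, D and E. An adjusted p under 0.05 held for 3 of the 6 in the authors' deposited table. Optn, the conjugation enzyme Atg7 (log fold 0.29, 100% of A cells and 65.9% of other cells) and the protease Atg4b (0.28, 97.8% and 87.2%) passed. Optn and Atg7 were also listed for B, Atg7 at a log fold of 0.31 and in 100% of B cells. The mitophagy receptor Bnip3l (0.36), the starting kinase Ulk1 (0.35) and the mitochondrial damage kinase Pink1 (0.35) had adjusted p of 1, 1 and 0.0524.

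Redox and energy genes gave a mixed picture. Of 46 glutathione, thioredoxin and other antioxidant genes, 4 were listed for A (8.7%, beside 5.27% over all genes tested), the same number as for B and C. All 4 passed in the authors' deposited table. Beside Mgst1 the 4 were Gstm1 (log fold 0.50), the sulfiredoxin Srxn1 (0.45, 100% of A cells and 28.5% of other cells) and the peroxiredoxin Prdx5 (0.28). Srxn1 was listed for B too, at a log fold of 0.66 and in 100% of B cells. Of 36 genes of pyruvate dehydrogenase and the tricarboxylic acid cycle, 5 (13.9%) were listed for A, 0 for B and 2 each for C, D and E. Of the 5, 4 passed. Citrate synthase (Cs, 0.39), the pyruvate dehydrogenase phosphatase Pdp1 (0.37), Idh1 (0.33) and Aco1 (0.30) passed, and Idh3b (0.26, adjusted p 0.128) did not. Idh1 and Aco1 encode the cytosolic forms of their enzymes. Aco1 was found in 97.8% of A cells and 21.8% of other cells.

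Of 78 respiratory chain and ATP synthase genes, 1 was listed for A (1.28%, against 5.27% over all genes tested), beside 0, 1, 5 and 3 for B, C, D and E. It was Ndufs1 of complex I (log fold 0.33, adjusted p 0.00125, authors' deposited table). None of 15 mitochondrially encoded genes was listed for A, a list too short to read against that share. Of 25 glycolysis genes, Pfkfb4 (0.27) and Pfkfb2 (0.26) were listed for A (8.0%). Both make or remove a signal that drives the pathway. Pfkfb2 was found in 97.8% of A cells and 19.6% of other cells, and was listed for B too (log fold 0.43, 82.1% of B cells). Of 82 cytosolic ribosomal protein genes only the paralogue Rpl22l1 was listed (0.27, adjusted p 0.232).

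Genes known from resting and long-term HSCs were listed for A more often than for the other clusters, a difference that was not tested. Of 60 such genes, 18 were listed for A, with 12 under an adjusted p of 0.05 by the authors' deposited table, beside 4, 5, 1 and 0 for B, C, D and E. Their median log fold was 0.43. Ifitm1, Nr4a1 and Junb (0.62) led, and Ly6a (0.54), which encodes Sca1, Mllt3 (0.49), which maintains HSC identity, and Tgm2 (0.47) passed too. Ly6a and Slamf1, the gene of CD150, belong to the surface proteins used for sorting, and all cells had passed those gates. Slamf1 was found in 93.3% of A cells and 40.2% of other cells (log fold 0.30), and was listed for B too (0.30, 100% of B cells). Pbx3 was found in 82.2% of A cells and 29.1% of other cells (0.43), and Procr, the protein C receptor of HSCs, in 100% and 93.9% (0.27, adjusted p 0.0468). Gata2, Ndn, Fgd5, Nupr1, Sult1a1 and Egr1 were listed with an adjusted p above 0.05.

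**Figure D4:**
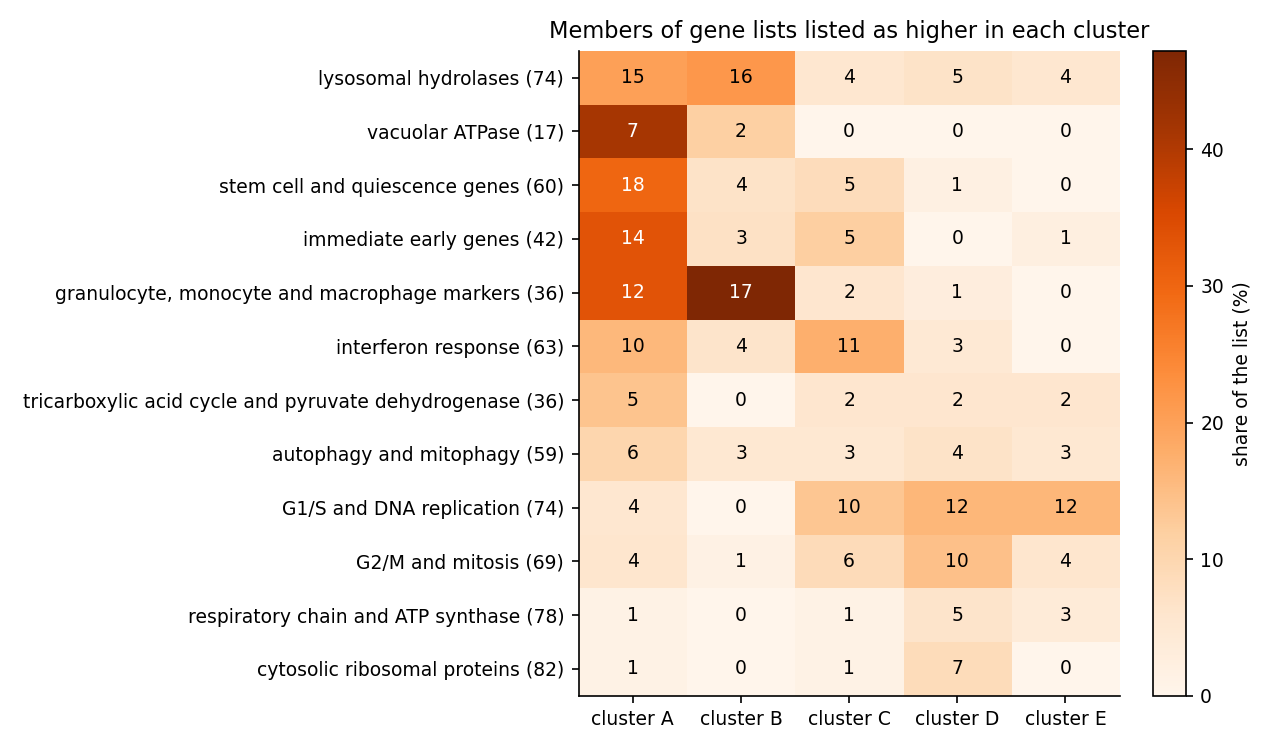
Each cell of the grid gives the number of genes of a list (rows, with the size of the list in brackets) that the authors list as higher in a cluster (columns, A to E), and its colour the share of the list in percent. The column of cluster A holds 7 of 17 vacuolar ATPase, 18 of 60 stem cell and 14 of 42 immediate early genes. Of the 74 G1/S genes C, D and E hold 10, 12 and 12, and of the 69 G2/M genes 6, 10 and 4.

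Immediate early genes, which answer stimuli within minutes, overlapped this group, and Nr4a1, Junb and Egr1 were among the genes counted in both lists. Of 42, 14 (33.3%) were listed for A against 3, 5, 0 and 1 for B, C, D and E. Of the 14, 6 passed at an adjusted p under 0.05 by the authors' deposited table. Nr4a1 (0.69), Atf3 (0.64), Junb, Nr4a2 (0.42), Rhob (0.35) and Dusp2 (0.34) passed. Egr1 (0.50, adjusted p 0.0896), Fos (0.34, adjusted p 0.426), Jun (0.30, adjusted p 1), Zfp36, Dusp1, Nfkbiz, Ppp1r15a and Ier2 did not. Egr1, Fos, Jun and Junb were found in 100% of A cells and 100% of other cells.

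TGACGTCA, the palindrome bound by CREB and ATF factors, was looked for in the same way, because such sites are known from immediate early promoters. It occurred in 2 of 11 immediate early genes of cluster A with a promoter in the table and in 2 of 25 genes of the same list not listed for A. Over all cluster A genes it occurred in 2.64%, against 1.77% of the same 27025 genes, and this difference was not tested either. Dusp1, a phosphatase that switches off MAP kinases, and Ppp1r15a, which ends the translation block of the stress response, carried it; both are on the minus strand, at chr17:26508592-26508631 and chr7:45526269-45526296, with the palindrome in capitals. The Dusp1 stretch lies inside the longer span that GENCODE M21 gives the gene, 26505590 to 26562128, and the Ppp1r15a stretch directly before that gene's start in both annotations.
Dusp1: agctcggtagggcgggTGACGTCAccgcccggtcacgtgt
Ppp1r15a: gaccccgcctctccggTGACGTCAgcac

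Interferon response genes numbered 10 of 63 for A (15.9%), beside 4, 11, 3 and 0 listed for B, C, D and E. Of the 10, 7 had an adjusted p under 0.05 by the authors' deposited table. Ifitm1, the transcription factor Irf1 (log fold 0.48), Irgm1 (0.36) and Irf2 (0.34) passed, and Parp9 (0.47, adjusted p 0.443) did not. Ifitm1 was counted among the stem cell genes as well. Of 74 G1/S and replication genes 4 (5.41%) were listed for A and of 69 G2/M genes 4 (5.8%), shares near the 5.27% over all genes tested. B, C, D and E listed 0, 10, 12 and 12 of the G1/S genes and 1, 6, 10 and 4 of the G2/M genes. Of their G1/S genes, 8 in C, 4 in D and 1 in E had an adjusted p under 0.05. Among those listed for A that passed were Cdc45 (0.38), Cdc6 (0.31), Kif11 (0.40) and Bub1b. Fzr1 (0.64), the activator of the anaphase-promoting complex that holds cells in G1, passed too. Of 59 genes of zinc finger repression, Zfp975 and Zfp938 (0.29) were listed.

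Markers of mature myeloid cells moved with cluster A and stand beside every count above. Of 36 granulocyte, monocyte and macrophage markers, 12 (33.3%) were listed for A, beside 17 for B, 2 for C, 1 for D and 0 for E. All 12 had an adjusted p under 0.05 by the authors' deposited table. Chil3, Retnlg, Ly6c2 (log fold 0.66) and the lysozymes Lyz2 (0.61) and Lyz1 (0.58) led; the lysozymes are near-identical copies whose reads can be split between them. Ltf, the lactoferrin of secondary granules, was found in 100% of A cells and 53.6% of other cells, at a log fold of 0.44 in A and 1.94 in B. Mmp8, a collagenase of the same granules, had 0.30 in A and 0.83 in B.

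Many defining granule genes were not listed for A. Ngp (log fold 1.77), Camp (1.96), Lcn2 (1.5), S100a8 (2.09) and S100a9 (2.08) were listed for B only among the clusters in the authors' deposited table. Elane, the elastase of early granulocytes, was found in 82.4% of cluster C cells and in 0.0% of cells outside C, which include those of A. The part of myeloid RNA in the cluster A list was not tested, and without expression values per cell it cannot be told whether a cell held both stem cell and myeloid RNA above its background.

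Of 38 B cell, T cell and lymphoid progenitor markers, Cd74 (log fold 0.59) and Ighm (0.37) were listed for A, a share (5.26%) that does not stand above the 5.27% over all genes tested, and Ighm, the heavy chain of IgM, had a log fold of 1.69 in B in the authors' deposited table. Of 21 erythroid markers, the adult globin genes Hbb-bt (0.55) and Hbb-bs (0.40), which are near-identical copies, and Blvrb (0.42) were listed. Pecam1 (0.27) was the only one of 20 endothelial and stromal markers (5.0%), again near that share, and none of 15 mast cell, eosinophil and basophil markers was listed. Ddx3y, a gene of the Y chromosome named after its values were seen, was found in 82.2% of A cells and 26.3% of other cells, and the MMP shares were 70.5% in the low gate and 8.4% in the high gate. The labels do not state the sex of the mice.

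Predicted genes made up 69 of the 854. The 5 cluster A genes of largest fold that another cluster also lists were all of this kind: Gm10800 (log fold 1.08), Gm21738 (1.03), Gm26870 (0.93), Gm10722 (0.91) and Gm10717 (0.90) in the authors' deposited table, each listed for C as well. A group of 9 lay on chromosome 9 between 3000282 and 3038313, and 52.2% to 94.4% of the 31-base words in their GENCODE M21 transcripts recurred in other predicted genes of cluster A. Reads from such copies cannot be assigned with certainty. Of these 9 genes 8 were listed for C, 0 for B and all 9 as higher in MMP-low, and 3 were found in fewer A cells than other cells.

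Enrichment terms that the authors deposited for cluster A were led by lysosomal and granule terms. Under an adjusted p of 0.05 stood 54 terms, which drew on only 22 distinct sets of genes, and 8 cellular component terms, lysosome and endolysosome among them, held the same 22 genes. Lysosomal membrane had 40 of 347 genes and an adjusted p of 7.90e-06, and lysosomal lumen 26 of 222 genes and 0.000209, in the authors' deposited table. For cluster B the lysosomal lumen term had 16 of 222 genes and an adjusted p of 0.285. Other terms of A that rest on cathepsins were under 0.05 in B too. These were multivesicular body sorting (adjusted p 0.0161 in B), retrograde ER proteolysis (0.0158), antigen processing (0.0347) and modification-dependent breakdown (0.0359). Mannoprotein breakdown (0.0699) and misfolded protein breakdown (0.076) were not. Neutrophil degranulation had 50 of 487 genes in A (adjusted p 6.22e-05) and 46 of 487 in B (1.90e-06).

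Of the 12 myeloid markers listed for A, 6 were among the 50 genes of that degranulation term. Of the 50 genes, 13 belong to the lysosomal or vacuolar ATPase lists and 19 were also listed for B. An adjusted p under 0.05 held for 39 of the 50 by the authors' deposited table. Among the 50 were the cathepsins A, B, C, H, S and Z, Psap, Lamp1 and Mgst1, beside Ltf, Mmp8 and Cd177. Rac1 and Rhoa, GTPases of the cytoskeleton, were there too. The term negative regulation of apoptosome assembly drew on 7 of 16 genes (adjusted p 0.00678), among them Gsk3b, Nr4a2 and Ulk1.

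The 21 molecular function terms deposited for A were named for kinases and phosphotransferases, mostly of small molecules, such as NADH kinase and riboflavin phosphotransferase activity. Each drew on 12 or 13 genes, nearly the same ones. Among them were Gsk3b, Mapk3, Rps6ka1, Ulk1, Pink1, Bcr and Pik3cd, which are known as protein or lipid kinases, with Coq8a, Dgka and Ccl3. Their adjusted p was 0.000179 in the authors' deposited table. Ccl3 encodes a chemokine and no kinase, and the background used for these terms is not stated.

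Pathway scores compared the clusters over 13 gene sets, by a Kruskal-Wallis test and a z score for each pair, in the authors' deposited table. How a cell was scored, and which sign means higher, is not stated, so only the order of clusters along each score is described. Of 52 pairs with A, 34 carried the authors' mark of significance, 12 of 13 with B, 7 with C, 7 with D and 8 with E. In every pathway B stood at one end of the order, and E stood at the other end in 11. Cluster A took the end opposite B in Lysosome and in Lysosomal vesicle biogenesis.

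For Lysosome the z scores of A with D, B and C were -8.65, -7.52 and -7.33 in the authors' deposited table, the widest separation from D and C among the 13 pathways. The pair of A with E, at -1.41 when A is written first, had a p of 0.7923 and was not marked. Lysosomal vesicle biogenesis gave -5.63 with D, -5.14 with B, -3.75 with C and -0.05 with E. Autophagy gave -4.34, -4.26 and -4.38 with D, B and C and 1.01 with E, and Macroautophagy -5.93, -6.30 and -2.26 with D, B and C and 1.81 with E. In Lysosomal oligosaccharide catabolism the pair of A with E (3.88) was marked, and those with B (-3.05), C (-2.23) and D (-2.02) were not. The mark did not follow the deposited p of the pair throughout. That pair with B was unmarked at a p of 0.0116, whereas A with D in Translation Factors (-2.83) was marked at 0.0236. A missing mark is therefore no sign that A and B were alike.

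Electron Transport Chain and Oxidative phosphorylation were the pathways in which A took the third of the 5 places. For the Electron Transport Chain the scores with A first were 2.41 with D, -3.80 with B, -1.72 with C and 5.15 with E, and for Oxidative phosphorylation 1.81, -3.54, -1.82 and 4.98; only the pairs with B and E were marked in the authors' deposited table. These were the only pathways in which A and D changed order relative to the rest. For the TCA Cycle, Glycolysis, Purine Metabolism, Translation Factors, mRNA Processing and Eukaryotic Transcription Initiation, A stood between D or C and E, with scores of -5.55 to -8.08 against B. In all pathways except Electron Transport Chain and Oxidative phosphorylation, A stood next to E in the order, whereas the gene lists of A and E shared only 2 genes.

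**Figure D5:**
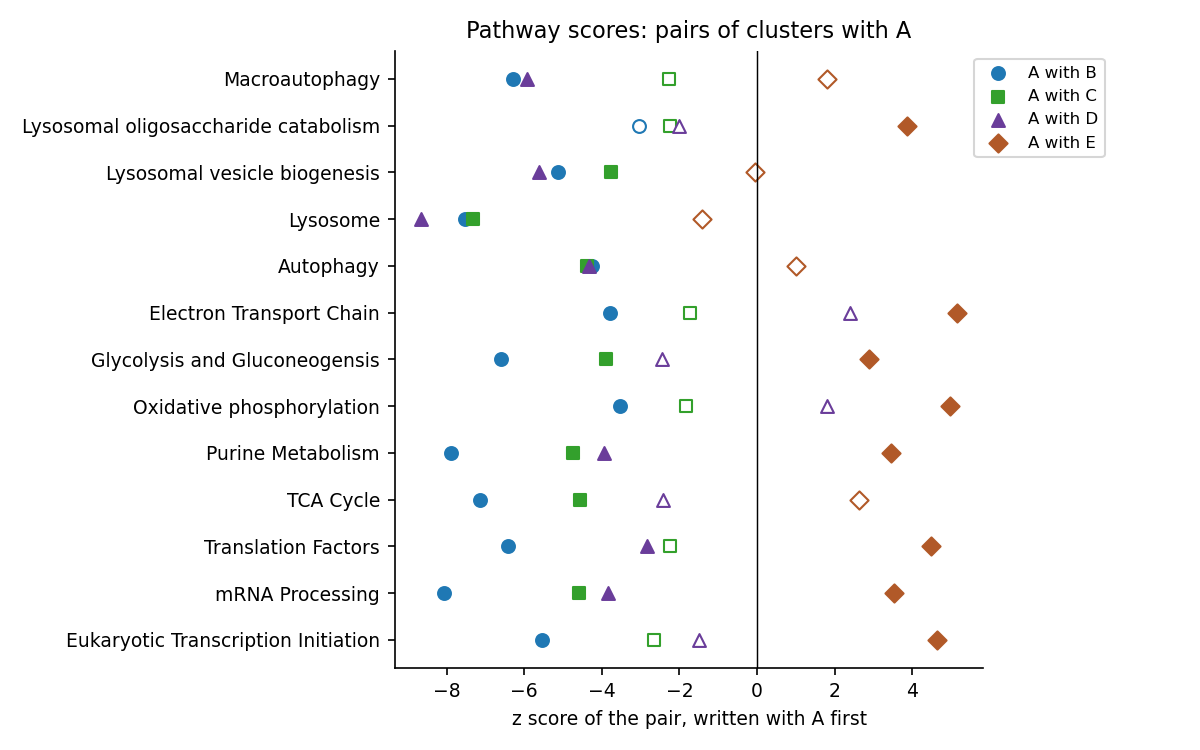
The horizontal axis gives the authors' z score (no unit) of each pair of clusters with A, written with A first, for the 13 pathways down the page. Symbols mark the other cluster of the pair, filled where the authors marked the pair as significant and open where they did not. Pairs with B are all negative, from -3.05 to -8.08, and pairs with E are positive except in Lysosome (-1.41) and Lysosomal vesicle biogenesis (-0.05).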

How the data were processed

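Single C57Bl6 HSCs were captured on the Fluidigm C1, made into cDNA with SMART-Seq v4 and into Nextera XT libraries, per the labels' protocols. Per the submitters' processing notes the tools included STAR 2.5.2b and bcl2fastq 2.17.1.14, with build mm10. How cells were normalized and clustered, and whether zeros were filled in, was not stated. Read counts and detected genes per library were deposited by the authors as counts. Detection was deposited as a fraction of cells and turned into percent. The authors deposited a p-value per gene, and the adjusted p equals it times 16203, taken as the number of genes tested. Their fold is an average log value of unstated base; genes under 0.25 or with a p-value above 0.00997 are not listed. The z score per pair of clusters and the combined score per term are the authors' deposited values. The MMP table's title names MAST, per the file headers; the cluster table names no test.

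From these tables counts, medians and shared symbols were computed with Python 3.11.15, pandas 2.3.3 and numpy 2.4.6, and no test was run. Cluster sizes were solved by least squares from the detection fractions, checked on simulated data. Positions come from GENCODE M21, in which 845 of the 854 symbols matched. The marker genes, the 22 gene lists and the naming rule (the 20 genes of largest fold without predicted genes, up to 5 members per list, the extremes of detection and the leading shared genes and terms) were chosen with earlier results of these data known, and any other gene was chosen after its values were seen. Alternatives counted the genes at stricter p or fold limits and without predicted, shared or marker genes. Some listed genes are not reported here.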

Additional observations from a re-analysis of the deposited data

How the results depend on the processing

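Restricting the cluster A list to a log fold of at least 0.5 left 0.642% of the genes tested (5.27% without that limit), 100 of the 556 on the MMP-low side, 49 of the 313 shared with other clusters and 27 distinct genes of the fixed lists. Leaving out genes that another cluster lists left 3.34% of the genes tested, and 279 of those on the MMP-low side. The number on the MMP-high side was 0 without any limit and could not change, since all 7 alternatives only remove genes. The other alternatives kept every total within 1.5 times: an adjusted p under 0.05 left 4.05% of the genes tested and one under 0.01 left 3.7%, and leaving out predicted genes left 4.84%. For single lists 39 of 154 alternative counts moved by more than that; immediate early genes dropped to 6 and autophagy genes to 3 at an adjusted p under 0.05. A total of 44 pairs with A reached an absolute z of 2, 51 an absolute z of 1, and 34 carried the authors' mark, a setting added after the data were seen. No paired analysis was possible because the values come from the authors' comparisons over pooled cells, without expression values per library. Detection counts no molecules, and without depth per cluster a gene at 0% may lie below what these libraries can show.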
